A study of Mus musculus with 9 samples.

Results

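A set of 8 genes, of the 23955 gene rows counted, was followed across mouse organoids as readouts of the fetal-like state of gut epithelium and of the transcriptional coactivator YAP. They were chosen by symbol. Ly6a, Clu, Gja1 and Spp1 are the fetal-like members, and Ctgf, Cyr61, Ankrd1 and Amotl2 are the YAP target members. RNA-seq was performed on 9 organoid cultures in 3 groups of 3 biological replicates. MIN organoids were grown from the Apc-mutated gut epithelium of APCmin/+ mice that lay beside the adenomas. Adenoma organoids were grown from the adenomatous polyps of APCmin/+ mice, and Sulindac organoids from such polyps that were then treated with sulindac, a non-steroidal anti-inflammatory drug (NSAID). All 3 groups therefore carried the Min allele of Apc, and all were grown in one medium that held Noggin, EGF, bFGF, R-spondin1 and B27, so no group is wild type and each was under supplied growth factors. The ages, strain and number of mice, the segment of gut, the dose and length of sulindac treatment and the vehicle of the untreated adenoma cultures are not given in the sources used here.

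YAP and its paralog TAZ (encoded by Wwtr1) are transcriptional coactivators that bind DNA through the TEAD factors. The Hippo kinase cascade phosphorylates them and keeps them out of the nucleus. In the intestine, YAP is needed for regeneration after injury, when crypt cells take on features of the fetal epithelium, among them surface Ly6a (also called Sca-1) and the chaperone Clu. Loss of Apc activates Wnt signaling, and its adenomas have been described as holding cells of both stem-like and fetal-like kinds.

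The YAP target members encode Ctgf (CCN2) and Cyr61 (CCN1), secreted matricellular proteins, Ankrd1, an ankyrin repeat protein that works in the nucleus, and Amotl2, an angiomotin family protein that binds YAP and restrains it. Promoter sequences from RefSeq (GRCm38.p6) are shown for the 3 YAP target members that the promoter table holds, since YAP reaches DNA through the TEAD factors. Each run is the 250 bases before the annotated start, 5′ to 3′ on the gene's strand, with every match to the TEAD motif GGAATG or its other strand CATTCC in capitals. Cyr61 lies at chr3:145649986-145650235 on the minus strand, Ankrd1 at chr19:36119845-36120094 on the minus strand and Amotl2 at chr9:102717554-102717803 on the plus strand.
Cyr61: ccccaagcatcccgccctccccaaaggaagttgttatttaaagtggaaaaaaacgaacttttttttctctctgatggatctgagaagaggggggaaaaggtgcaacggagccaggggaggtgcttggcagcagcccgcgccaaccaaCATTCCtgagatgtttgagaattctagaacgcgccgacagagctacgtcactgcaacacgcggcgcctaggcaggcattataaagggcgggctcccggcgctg
Ankrd1: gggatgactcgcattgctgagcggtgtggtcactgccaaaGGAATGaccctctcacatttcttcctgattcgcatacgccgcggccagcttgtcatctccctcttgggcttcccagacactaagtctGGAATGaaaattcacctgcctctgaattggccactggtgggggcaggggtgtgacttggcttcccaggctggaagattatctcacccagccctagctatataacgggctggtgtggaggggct
Amotl2: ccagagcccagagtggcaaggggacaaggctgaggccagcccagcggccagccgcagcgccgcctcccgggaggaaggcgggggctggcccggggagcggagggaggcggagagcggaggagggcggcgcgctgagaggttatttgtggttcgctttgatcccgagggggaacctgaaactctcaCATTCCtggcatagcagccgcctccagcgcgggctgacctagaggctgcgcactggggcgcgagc
The motif began 103 bases before the start of Cyr61 and 65 bases before that of Amotl2. In Ankrd1 it began at 210 and again at 123 bases before the start. Windows that ran from 250 bases before to 50 bases after a start held the motif in 14.7% of 32851 RefSeq promoters. Of the 5 members with a promoter in the table, those 3 held it, whereas Gja1 and the pair of Spp1 promoters did not. Gja1 held the AP-1 motif TGANTCA 19 bases before its start, which 7.81% of the promoters hold, and Amotl2 held the TCF/LEF motif ATCAAAG (other strand CTTTGAT) 97 bases before its start, which 3.73% hold. These are matches of letters only. Ly6a, Clu and Ctgf have no promoter shown.

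The libraries held 30881206 to 48412477 counts, at which the floor of 3 counts lay between 0.0647 and 0.0989 CPM (counts scaled for library size, here with TMM over all 9 samples). The 6 epithelial markers (Epcam, Cdh1, Krt8, Krt18, Krt19 and Vil1) had sums of 5329 to 7734 CPM in MIN, 3219 to 4244 in adenoma and 4512 to 5322 in sulindac libraries. The 9 mesenchymal markers summed to 3.97 to 4.19, 2.32 to 3.33 and 0.950 to 1.34 CPM, and Col1a2, Col3a1, Dcn and Lum had 0 counts in every library. Most of the MIN sum was Pdgfrb, at 3.43 to 3.80 CPM in MIN and at most 0.0281 in adenoma. Pdgfra, Des and Col1a1 went the other way. Their means were 0.152, 0.00812 and 0.376 CPM in MIN and 0.867, 0.543 and 1.19 in adenoma. Acta2 had at most 3 counts in any library. The leukocyte markers, 7 of the 8 with a row, summed to 1.70 to 2.65 CPM in MIN, 8.17 to 16.5 in adenoma and 2.97 to 4.05 in sulindac libraries. Most of this was Cd68, with 284 to 560 counts in adenoma, while Ptprc, which marks all leukocytes, had 0 to 1 counts in MIN, 4 to 8 in adenoma and 0 with sulindac. The 5 endothelial markers summed to 1.44 to 3.14, 3.01 to 7.61 and 3.69 to 4.72 CPM. Unlike the leukocyte sum, the mean of Lyz2 was lower in adenoma (0.00933 CPM) than in MIN (0.421 CPM). Unlike the endothelial sum, the mean of Pecam1 was also lower in adenoma (0.0850 CPM) than in MIN (0.399 CPM). The part of these cell types in the results was not tested. In such bulk samples, fewer cells of a type and less RNA per cell cannot be told apart. MIN 3 stood apart from the other MIN libraries for several members: it held 5.97-fold the mean of MIN 1 and MIN 2 for Ly6a, 2.18-fold for Cyr61 and 1.94-fold for Amotl2, against 1.02-fold for Ctgf and 0.790-fold for Clu. MIN 3 also had the highest marker sums of the MIN libraries, with 2.65 CPM for leukocyte markers against 2.19 and 1.70 in MIN 1 and MIN 2, 3.14 CPM for endothelial markers against 1.44 and 2.29, 4.19 CPM for mesenchymal markers against 3.97 and 4.18, and 7734 CPM for epithelial markers against 5329 and 5763. Their part in the MIN 3 values was not tested.

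**Figure D1:**
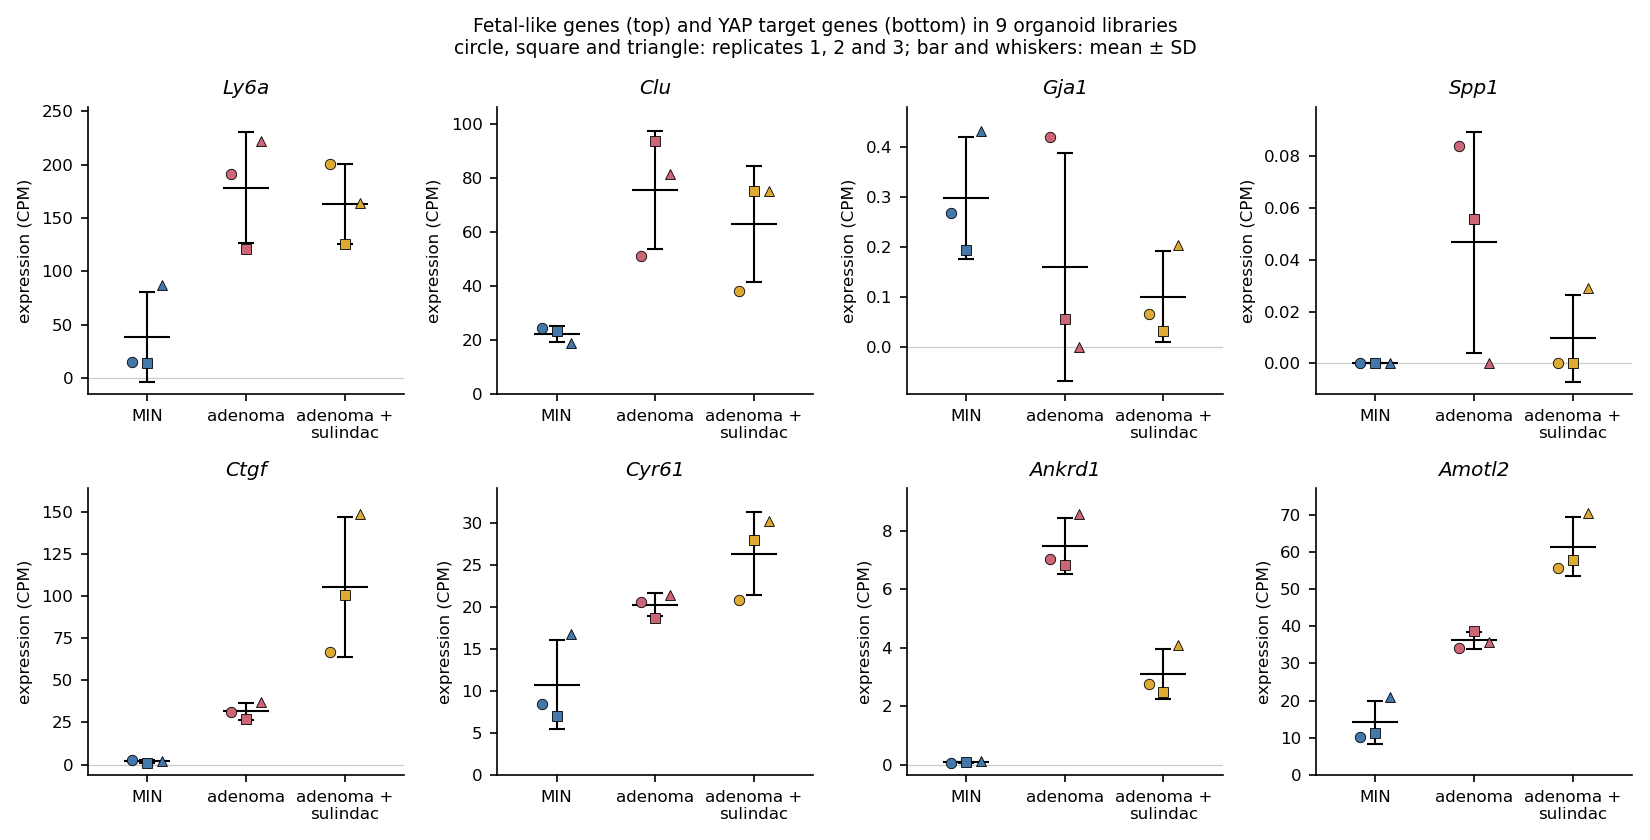
Level of each of the 8 genes in the 9 libraries, in CPM, with a panel and a linear axis for each gene. Points are libraries (circle, square and triangle for replicates 1, 2 and 3), and bars and whiskers are the mean ± SD. Ctgf and Ankrd1 in the 3 MIN libraries sit far below every adenoma and sulindac library, whereas Gja1 is at most 0.433 CPM and Spp1 at most 3 counts in any library.

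The first comparison asked which members differ between adenoma organoids and organoids of the adjacent epithelium that carries the same Apc allele. Clu, Ctgf, Ankrd1 and Amotl2 were higher in adenoma and no member was lower. The changes ran from 1.36 (Amotl2) to 6.35 (Ankrd1) on the log2 scale. Counts of genes called here rest on edgeR's quasi-likelihood test at a false discovery rate (FDR) of 1%. That test called 4 of the 6 members it could test higher, against 18.5% of 13744 genes higher and 20.1% lower. All 6 lay above 0 with an unadjusted p under 0.05, a level for which no share of all genes was taken in any comparison. At least 3493 of the 13744 genes were higher at that level too, since that many passed an FDR of 5%. DESeq2 called 5 members higher and 0 lower, against 2953 higher and 3242 lower of 13744 genes. The median log2 fold change of the 6 was 1.98, against -0.01 over all genes tested (0.12 with library size alone), and 2.69 without MIN 3. Gja1 and Spp1 were removed by the filter on low counts. Ankrd1 passed that filter only through the adenoma libraries, so its inclusion already required a difference.

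Ankrd1 had 0.0731, 0.086 and 0.108 CPM in MIN 1 to 3, which are 3, 4 and 4 counts. It had 7.02, 6.83 and 8.58 CPM in the adenoma libraries, from 250, 244 and 296 counts. The groups lie far apart, with MIN at about the floor. The adenoma to MIN ratio of summed counts at equal effective depth was 84.4, with an exact 95% interval for counting error of 46.9 to 169.8, and the log2 fold change was 6.35 ± 0.30 (SE, n = 3 and 3; edgeR's quasi-likelihood test, adjusted p = 6.33e-07). Ctgf stood at 2.78, 1.21 and 2.03 CPM in MIN and at 31.1, 26.8 and 37.0 CPM in adenoma. Every adenoma library exceeded every MIN library, with a log2 fold change of 3.98 ± 0.29 (edgeR's quasi-likelihood test, adjusted p = 8.52e-06).

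Amotl2 had 10.1, 11.4 and 20.9 CPM in MIN and 34.1, 38.8 and 35.7 CPM in adenoma. The lowest adenoma library was above MIN 3, the highest MIN library. Its log2 fold change was 1.36 ± 0.26 (edgeR's quasi-likelihood test, adjusted p = 0.00219). The call missed the threshold without MIN 2 (1.21, adjusted p = 0.0100196) or without Adenoma 3 (1.37, adjusted p = 0.0116). Cyr61, the sister gene of Ctgf, had 8.41, 7.05 and 16.8 CPM in MIN and 20.6, 18.7 and 21.4 CPM in adenoma. These groups did not overlap either, but the log2 fold change of 0.91 (95% interval 0.22 to 1.60) did not pass (edgeR's quasi-likelihood test, adjusted p = 0.0321). Without MIN 3 it was 1.39 and passed (adjusted p = 0.00027).

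Of the fetal-like members, Clu had 24.5, 23.5 and 19.0 CPM in MIN and 51.2, 93.8 and 81.6 CPM in adenoma, again without overlap. Its log2 fold change was 1.76 ± 0.22 (edgeR's quasi-likelihood test, adjusted p = 0.00019). Ly6a encodes a surface protein held by a lipid anchor. It stood at 15.1, 14.0 and 86.9 CPM in MIN and at 191.2, 121.3 and 222.6 CPM in adenoma. All adenoma libraries lay above MIN 3, which itself was far from the other MIN libraries, and the log2 fold change of 2.2 ± 0.67 (95% interval 0.67 to 3.73) missed the threshold (edgeR's quasi-likelihood test, adjusted p = 0.0229). With the replicate number as a block, Ly6a was called higher, at 2.72 (adjusted p = 0.00312), which makes 5 members higher, against 2531 of 13744 genes. Without MIN 3 it was 3.62 (adjusted p = 4.65e-05), and 6 members were called higher, against 2440 of 13909 genes.

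Ly6a belongs to a family of close copies: 19.0% of the distinct 50-base stretches of all its transcripts (GENCODE M21) also occur in 4 other genes, and 15% in Ly6c1. How reads of such stretches were divided is not given in the sources used here. Ly6c1 had 2.65 ± 3.79 CPM (SD, n = 3) in MIN, 15.7 ± 3.81 in adenoma and 2.70 ± 0.741 in sulindac libraries, well below Ly6a. For Ctgf 17.2% and for Spp1 11.6% of the stretches occur in another gene, Gm15270 and Gm42793, which have no row of their own here. For the other members the share was at most 0.369%.

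Gja1, which encodes the gap junction protein connexin-43, and Spp1, which encodes the secreted protein osteopontin, were barely counted. Gja1 had 11, 9 and 16 counts in MIN, 15, 2 and 0 in adenoma and 2, 1 and 7 in sulindac libraries. The adenoma range spans nearly the whole MIN range. In a fit with no filter on low counts its log2 fold change was -0.87 in adenoma against MIN (edgeR's quasi-likelihood test, adjusted p = 0.459). Spp1 had 0 counts in all 3 MIN libraries, 3, 2 and 0 in adenoma and 0, 0 and 1 in sulindac libraries. Every library of Spp1 lies at or under the floor of 3 counts, so no fold change is given. For the 5 summed adenoma counts against 0 in MIN, the exact 95% interval of the ratio began at 1.08, which covers counting error only, and in the fit with no filter Spp1 did not pass (edgeR's quasi-likelihood test, adjusted p = 0.098).

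The second comparison asked how the members in adenoma organoids differ after sulindac. Ctgf and Amotl2 were higher and Ankrd1 was lower with sulindac, whereas Ly6a, Clu and Cyr61 did not pass the test. That is 2 of 6 members higher and 1 lower by edgeR's quasi-likelihood test, against 8.32% of 12962 genes higher and 9.1% lower. The median log2 fold change of the members was 0.14, against -0.01 over all genes tested. Scaling moves the balance of this comparison over all genes. With library size alone the median was -0.18, and 603 genes were higher and 1983 lower in place of 1078 and 1179. Higher genes were then 23.3% of all calls, against 47.8%. The 3 members called kept their direction and their call under that scaling (Ctgf 1.59, Amotl2 0.61 and Ankrd1 -1.41).

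Ctgf, at 31.1, 26.8 and 37.0 CPM in adenoma, had 66.5, 100.7 and 148.8 CPM with sulindac. The groups did not overlap, and the log2 fold change was 1.75 ± 0.26 (edgeR's quasi-likelihood test, adjusted p = 0.00181). Amotl2 had 55.7, 57.9 and 70.4 CPM with sulindac, all above the adenoma libraries at 34.1 to 38.8 CPM. Its log2 fold change was 0.77 ± 0.12 (edgeR's quasi-likelihood test, adjusted p = 0.00207). In 1 fit of all 9 samples the adjusted p was 0.0247. Ankrd1 went the other way, at 2.77, 2.48 and 4.08 CPM with sulindac against 6.83 to 8.58 CPM in adenoma. The log2 fold change was -1.25 ± 0.23 (edgeR's quasi-likelihood test, adjusted p = 0.0041). The call was lost without Adenoma 2 (adjusted p = 0.0106), Sulindac 1 (0.0211) or Sulindac 2 (0.0154), with log2 fold changes of -1.30, -1.18 and -1.09. Over all genes, those called lower numbered 622, 492 and 631 in these fits, in place of 1179.

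Cyr61 had 20.8, 27.9 and 30.2 CPM with sulindac against 20.6, 18.7 and 21.4 CPM in adenoma. Sulindac 1 lay inside the adenoma range, and the log2 fold change of 0.39 (95% interval 0.07 to 0.72) did not pass (edgeR's quasi-likelihood test, adjusted p = 0.0643). Ly6a had 200.8, 126.0 and 163.7 CPM with sulindac, between or beside the adenoma values, with a log2 fold change of -0.11 (95% interval -0.64 to 0.43; edgeR's quasi-likelihood test, adjusted p = 0.762). Clu had 38.1, 75.3 and 75.4 CPM, also overlapping adenoma, with -0.25 (95% interval -0.90 to 0.39; adjusted p = 0.525). For Gja1 the ratio of summed counts was 0.640 (exact 95% interval 0.262 to 1.48).

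**Figure D2:**
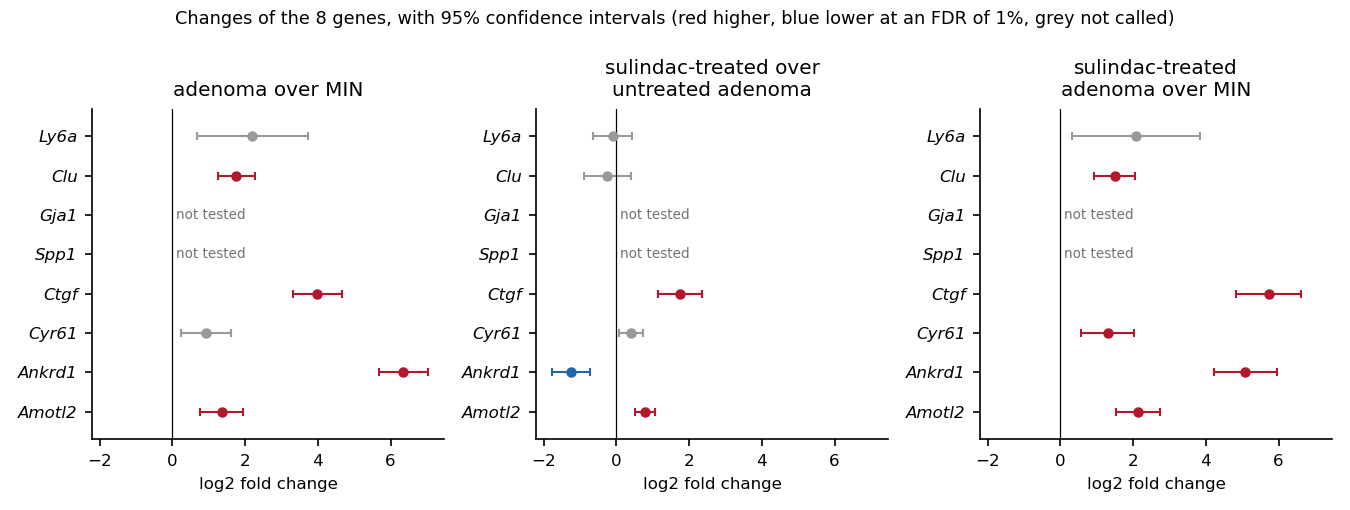
Log2 fold change of each tested member in the 3 comparisons, with bars for the 95% interval from edgeR's fit. Red points were higher and blue points lower at an FDR of 1%, and grey points were not called. Gja1 and Spp1 were not tested. Ankrd1 has the largest value of the members in adenoma over MIN (6.35) and the only called value below 0 with sulindac (-1.25).

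Sulindac organoids were also set against MIN, a comparison that shares samples with both others. Clu, Ctgf, Cyr61, Ankrd1 and Amotl2 were higher and none was lower, so 5 of the 6 tested members were called higher by edgeR's quasi-likelihood test, against 23% of 13551 genes higher and 26.8% lower. All 6 again lay above 0 with an unadjusted p under 0.05, as did at least the 3998 of 13551 genes higher at an FDR of 5%. DESeq2 called 5 members higher and 0 lower, against 3426 higher and 3969 lower of 13551 genes. The median log2 fold change of the 6 was 2.11, against -0.03 over all genes tested, and 3.01 without MIN 3. Ankrd1 passed the low-count filter here only through the sulindac libraries, so the count and the median include a gene whose inclusion already required a difference. The changes were 5.72 ± 0.39 for Ctgf (adjusted p = 6.36e-06) and 5.09 ± 0.38 for Ankrd1 (adjusted p = 7.3e-06; a ratio of 35.4 in summed counts, exact 95% interval 19.5 to 71.8). Amotl2 stood at 2.12 ± 0.26 (adjusted p = 0.000189) and Clu at 1.49 ± 0.25 (adjusted p = 0.000909), all by edgeR's quasi-likelihood test. Without MIN 3 the call for Clu was lost (1.39, adjusted p = 0.0124).

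Cyr61 was at 1.30 ± 0.31 against MIN (edgeR's quasi-likelihood test, adjusted p = 0.00697), a call that was lost when any 1 library other than MIN 3 was left out (adjusted p = 0.0122 to 0.0324). Ly6a, at 2.09 (95% interval 0.32 to 3.85), missed the threshold (adjusted p = 0.0438) but passed without MIN 3 (3.49, adjusted p = 8.05e-06). Ly6a in sulindac libraries, at 126.0 to 200.8 CPM, nonetheless lay above all 3 MIN libraries. Gja1 had 0.355 times the MIN counts (exact 95% interval 0.157 to 0.730), while in the fit without a filter its log2 fold change of -1.50 did not pass (edgeR's quasi-likelihood test, adjusted p = 0.0827).

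The YAP target members therefore had different orders of levels over the groups. Ankrd1 was highest in adenoma, whereas Ctgf, Amotl2 and Cyr61 had their highest means with sulindac. This can be read within each library as a ratio of counts, which does not depend on scaling. There were 38, 14 and 18.8 counts of Ctgf for each count of Ankrd1 in MIN, 4.42, 3.92 and 4.31 in adenoma and 24.0, 40.5 and 36.5 in sulindac libraries. The adenoma ratios lie close together and below all others. The log2 ratio was 2.35 lower in adenoma than in MIN and 2.96 higher in sulindac than in adenoma (two-sided exact permutation p = 0.1 each, the smallest that 3 against 3 allows), while sulindac and MIN differed by 0.61 (exact permutation p = 0.3). The MIN ratios rest on 3 or 4 counts of Ankrd1. The ratio of Ctgf to Cyr61 was 0.330, 0.171 and 0.121 in MIN, 1.51, 1.43 and 1.73 in adenoma and 3.19, 3.60 and 4.92 with sulindac. It was ordered over the 3 groups, MIN lowest and sulindac highest, without overlap (log2 differences 3.03 and 1.31, exact permutation p = 0.1 each). The Ctgf to Amotl2 ratio had the same order, with ranges of 0.0972 to 0.275, 0.691 to 1.04 and 1.19 to 2.12. Of the 9 tests on these 3 ratios, 8 gave that smallest p, which is 0.113 after Benjamini-Hochberg adjustment over the 9 exact tests.

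Levels of different genes were compared per kilobase of each gene's longest coding transcript (GENCODE M21). That length is not tied to the deposited counts. In adenoma the mean order was Ly6a at 186.8 CPM per kilobase, Clu at 41.7, Ctgf at 12.7, Cyr61 at 10.02, Amotl2 at 8.36, Ankrd1 at 3.70, Gja1 at 0.050 and Spp1 at 0.031. The libraries of neighbours from Ly6a to Ankrd1 did not overlap in adenoma. Ctgf and Cyr61 came closest, with a lowest Ctgf library of 10.75 and a highest Cyr61 library of 10.58, so their order rests on the lengths used. In MIN, Ctgf came below Amotl2, with 40.5 CPM per kilobase for Ly6a, 12.3 for Clu, 5.33 for Cyr61, 3.26 for Amotl2, 0.805 for Ctgf, 0.0937 for Gja1 and 0.0441 for Ankrd1, and Cyr61 and Amotl2 overlapped. With sulindac, Ctgf at 42.3 and Clu at 34.8 CPM per kilobase overlapped, as did Amotl2 at 14.2 and Cyr61 at 13.0. These lay between Ly6a at 171.2 and Ankrd1 at 1.54.

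The regulators of these targets were measured next, YAP, TAZ and the TEAD factors first. Yap1 passed in no comparison, whereas Wwtr1 and Tead4 were higher in adenoma than in MIN and higher again with sulindac, and Tead2 was higher in adenoma and lower with sulindac. Yap1 had 130.1 ± 15.2 CPM (SD, n = 3) in MIN, 162.1 ± 10.1 in adenoma and 154.6 ± 7.69 with sulindac. Its log2 fold change in adenoma over MIN was 0.32 (edgeR's quasi-likelihood test, adjusted p = 0.045). Wwtr1 had 7.92 ± 2.96, 55.7 ± 4.13 and 87.6 ± 5.68 CPM. It changed by 2.82 in adenoma over MIN (adjusted p = 2.21e-05) and by 0.67 in sulindac over adenoma (adjusted p = 0.00222), by edgeR's quasi-likelihood test. Wwtr1 thus shares its order of groups with Ctgf and Amotl2.

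Tead2 had 14.3 ± 4.59 CPM in MIN, 106.0 ± 5.54 in adenoma and 37.5 ± 12 with sulindac, the same order as Ankrd1. Its log2 fold changes were 2.89 (adjusted p = 1.27e-05) and -1.49 (adjusted p = 0.000943) by edgeR's quasi-likelihood test. Tead4 had 6.52 ± 1.14, 13.9 ± 2.39 and 22.8 ± 1.53 CPM, with 1.09 (adjusted p = 0.00173) and 0.72 (adjusted p = 0.00849) by edgeR's quasi-likelihood test. Tead3 had 24.8 ± 1.14 and 25.3 ± 0.886 CPM in MIN and adenoma and fell by 0.54 on the log2 scale with sulindac, to 17.2 ± 1.75 CPM (edgeR's quasi-likelihood test, adjusted p = 0.00842). With the replicate block, the calls of Tead4 and Tead3 in sulindac over adenoma were lost. Tead1 passed in no comparison, with mean levels of 70.5, 77.9 and 78.2 CPM. RNA levels do not report the phosphorylation or location of YAP and TAZ.

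**Figure D3:**
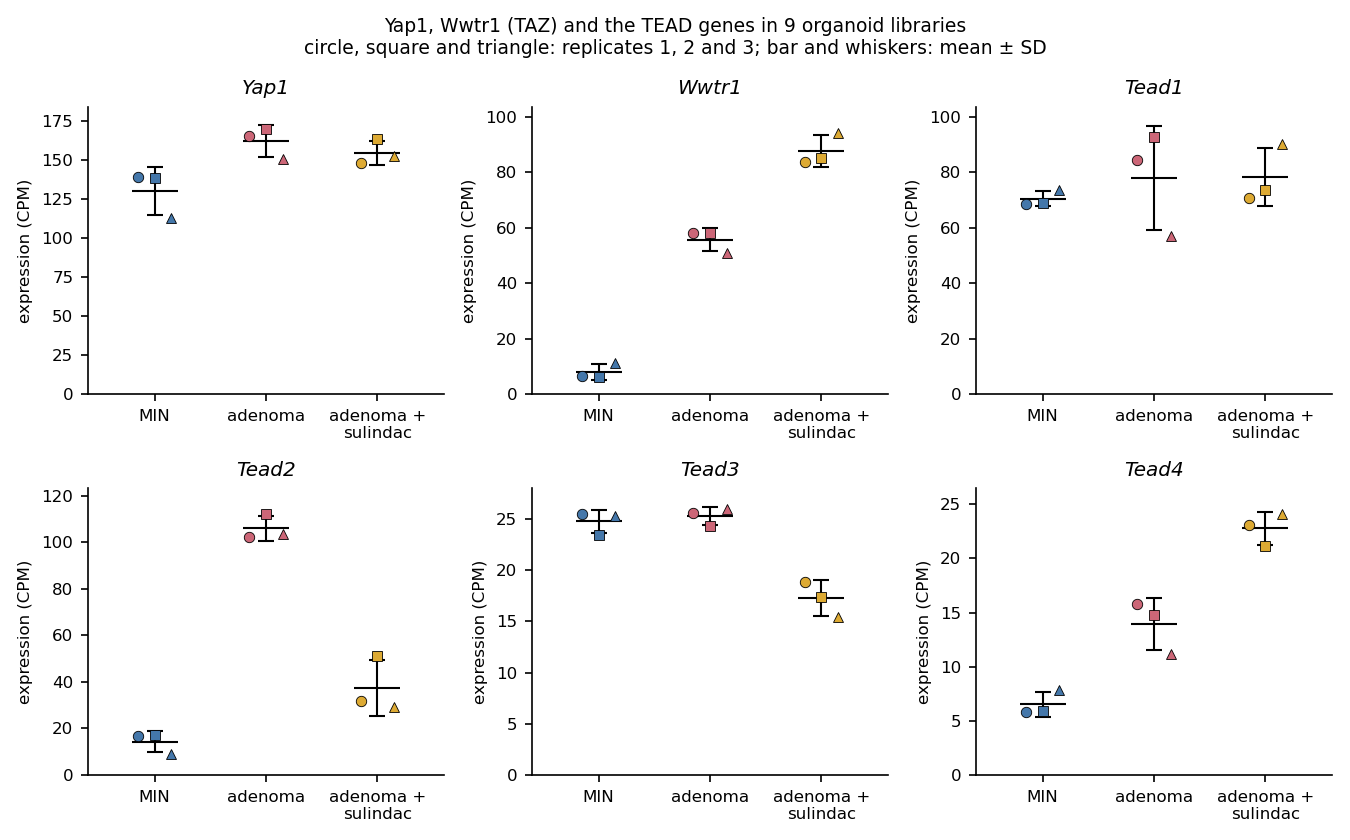
Level of Yap1, Wwtr1 and Tead1 to Tead4 in the 9 libraries, in CPM. Points are libraries, and bars and whiskers are the mean ± SD of each group. Wwtr1 has means of 7.92, 55.7 and 87.6 CPM in MIN, adenoma and sulindac libraries, and Tead2 is highest in adenoma at 106.0 CPM.

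All 21 Hippo pathway components were tested. In adenoma over MIN 6 were higher (Wwtr1, Tead2, Tead4, Lats2, Stk3 and Amotl1) and Nf2 was lower by edgeR's quasi-likelihood test, against 18.5% and 20.1% of all genes, with a median log2 fold change of 0.08. DESeq2 called 6 higher and 4 lower, against 2953 and 3242 of 13744 genes. At an unadjusted p under 0.05 edgeR's test had 9 and 5, against at least 3493 and 3670 of 13744 genes, the numbers at an FDR of 5%. The kinase gene Stk3 was at 1.52 (adjusted p = 3e-05) and Amotl1, a paralog of Amotl2, at 1.68 (adjusted p = 0.00125), both by edgeR's quasi-likelihood test. Nf2, an upstream activator of the cascade, was at -0.63 (edgeR's quasi-likelihood test, adjusted p = 0.00425). It was not called without MIN 3 (adjusted p = 0.0113). With the replicate block, Vgll4 was also called higher (adjusted p = 0.00747) and Amot lower (adjusted p = 0.00944), which makes 7 and 2, against 2531 and 2733 of 13744 genes. In sulindac over adenoma 4 were higher (Wwtr1, Tead4, Lats2 and Wwc1) and Tead2 and Tead3 were lower, against 8.32% and 9.1% of all genes, with a median of 0.18. Lats2, the kinase that phosphorylates YAP and is itself a YAP target, had 6.89 ± 1.81, 16.8 ± 1.99 and 31.8 ± 2.00 CPM in MIN, adenoma and sulindac libraries. It changed by 1.29 and by 0.94 (adjusted p = 0.000975 and 0.0011, edgeR's quasi-likelihood test). Wwc1, which encodes KIBRA, another upstream activator, had 115.4, 82.9 and 156.9 CPM, and rose by 0.93 with sulindac (edgeR's quasi-likelihood test, adjusted p = 0.00174). In sulindac over MIN 6 of the 21 components were higher and 2 lower, against 23% and 26.8% of all genes.

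Other YAP/TAZ targets, 18 genes of a published cancer-wide target set without the members, split in both directions in adenoma over MIN. Of 14 tested, 5 were higher and 6 lower, against 18.5% and 20.1% of all genes, with a median log2 fold change of 9e-04. Myof, a membrane repair protein, had 12.1 ± 5.56 CPM in MIN and 252.8 ± 65.8 in adenoma (4.38; adjusted p = 1.48e-05, edgeR's quasi-likelihood test), and the phosphatase gene Ptpn14 had 9.54 ± 1.15 and 116.8 ± 33.1 CPM (3.62, adjusted p = 3.7e-06). Rbms3 was at 3.48 (adjusted p = 1.98e-06) and Igfbp3, an IGF binding protein, at 2.00 (adjusted p = 0.000466), both in edgeR's quasi-likelihood test. Lower were Arhgef17, a guanine nucleotide exchange factor, at 28.2 ± 2.81 CPM in MIN and 0.425 ± 0.103 in adenoma (-6.04, adjusted p = 1.52e-07), and Crim1 (-1.36, adjusted p = 0.000526), in edgeR's quasi-likelihood test. F3, which encodes tissue factor, was at -3.59 (adjusted p = 0.0018), and Nt5e, which encodes the ectoenzyme CD73, at -5.85 (adjusted p = 0.00448), in edgeR's quasi-likelihood test. MIN 3 held 5.14-fold and 11.6-fold the other MIN libraries for F3 and Nt5e, and without it both stayed lower (-2.33 and -3.67). Nt5e passed the low-count filter only through the MIN libraries. Gadd45a and Nuak2 were the other genes called lower. With the replicate block Gadd45a missed the threshold (adjusted p = 0.0102).

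With sulindac, 5 of 13 tested targets of that set were higher than in adenoma and none was lower by edgeR's quasi-likelihood test, against 8.32% and 9.1% of all genes, with a median log2 fold change of 0.64. At an unadjusted p under 0.05, 7 were higher and 1 lower, against at least 2034 and 2374 of 12962 genes, the numbers at an FDR of 5%. DESeq2 called 6 and 0, against 1778 higher and 1766 lower of 12962 genes. The 5 were Gadd45a (1.34, adjusted p = 0.00075), Crim1 (1.18, adjusted p = 0.00153), F3 (1.15, adjusted p = 0.00215), Lats2 and the ARF regulator gene Asap1 (0.88, adjusted p = 0.00504). Of these, Gadd45a, Crim1 and F3 had been lower in adenoma than in MIN, and the adenoma libraries serve in both comparisons. Gadd45a, a stress response gene, had 43.9 ± 29.1, 13.1 ± 0.550 and 33.1 ± 7.24 CPM in MIN, adenoma and sulindac libraries. Myof (0.64, adjusted p = 0.0625) and Ptpn14 (0.25, adjusted p = 0.423) did not pass in edgeR's test. In sulindac over MIN 6 of 14 were higher and 2 lower, against 23% and 26.8% of all genes, with a median of 0.51. Nt5e, called lower, passed the low-count filter there only through the MIN libraries. Without MIN 3 the lower count was 4, against 3909 of 13732 genes.

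Of the 15 other fetal-like genes, all were tested in adenoma over MIN. The test called 8 higher, among them Anxa1, Anxa5, Anxa8, Msln, Krt7, Il33 and S100a6, and Anxa10, Emp1, Areg and Ereg were lower, against 18.5% and 20.1% of all genes, with a median log2 fold change of 0.92. Il33, an alarmin cytokine, had 1.28 ± 0.489 and 210.6 ± 39.6 CPM (7.38, adjusted p = 3.03e-07), and Msln, the surface protein mesothelin, was at 3.12 (adjusted p = 2.86e-05), in edgeR's quasi-likelihood test. Anxa8 was at 3.05 (edgeR's quasi-likelihood test, adjusted p = 0.000675). Without MIN 3 it was at 3.79. Anxa10 went from 21.9 ± 7.06 to 0.0468 ± 0.0585 CPM (-8.76, adjusted p = 2.71e-06), and the EGF receptor ligand Areg from 129.0 ± 99.5 to 14.7 ± 4.00 CPM (-3.14, adjusted p = 0.000876), in edgeR's quasi-likelihood test. Without MIN 3, which held 3.41-fold the other MIN libraries, Areg was at -2.28. Ereg, another such ligand, had 188 to 397 counts in MIN and 0 in all adenoma libraries, so it was at least 278-fold lower, with the floor of 3 counts taken over the adenoma group. With Ereg at that bound the median is 0.92 as well, which was fixed in advance because Ereg lies below the median either way. Anxa10 and Ereg passed the low-count filter only through the MIN libraries. Without MIN 3 the counts were 9 higher and 4 lower, against 2440 and 2677 of 13909 genes, and the median was 1.51.

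In sulindac over adenoma, 13 fetal-like genes were tested, and 1 was higher and 1 lower by edgeR's quasi-likelihood test, against 8.32% and 9.1% of all genes, with a median of 0.06. DESeq2 called 5 higher and 1 lower, against 1778 and 1766 of 12962 genes. At an unadjusted p under 0.05 edgeR's test had 5 and 3, against at least 2034 and 2374 of 12962 genes, the numbers at an FDR of 5%. Areg had 128.0 ± 35.9 CPM (3.14; edgeR's quasi-likelihood test, adjusted p = 0.000149). Il33 fell by 0.98 on the log2 scale, to 105.7 ± 24.1 CPM (edgeR's quasi-likelihood test, adjusted p = 0.00537). Anxa1 stood at 224.0 ± 25.4 CPM with sulindac against 239.0 ± 42.1 CPM in adenoma (-0.08, adjusted p = 0.73), which did not pass in edgeR's test. In sulindac over MIN 8 of 15 were higher and 2 lower, against 23% and 26.8% of all genes, with a median of 1.41. The 2 lower, Anxa10 and Ereg, passed the low-count filter there only through the MIN libraries, so their inclusion already required a difference.

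**Figure D4:**
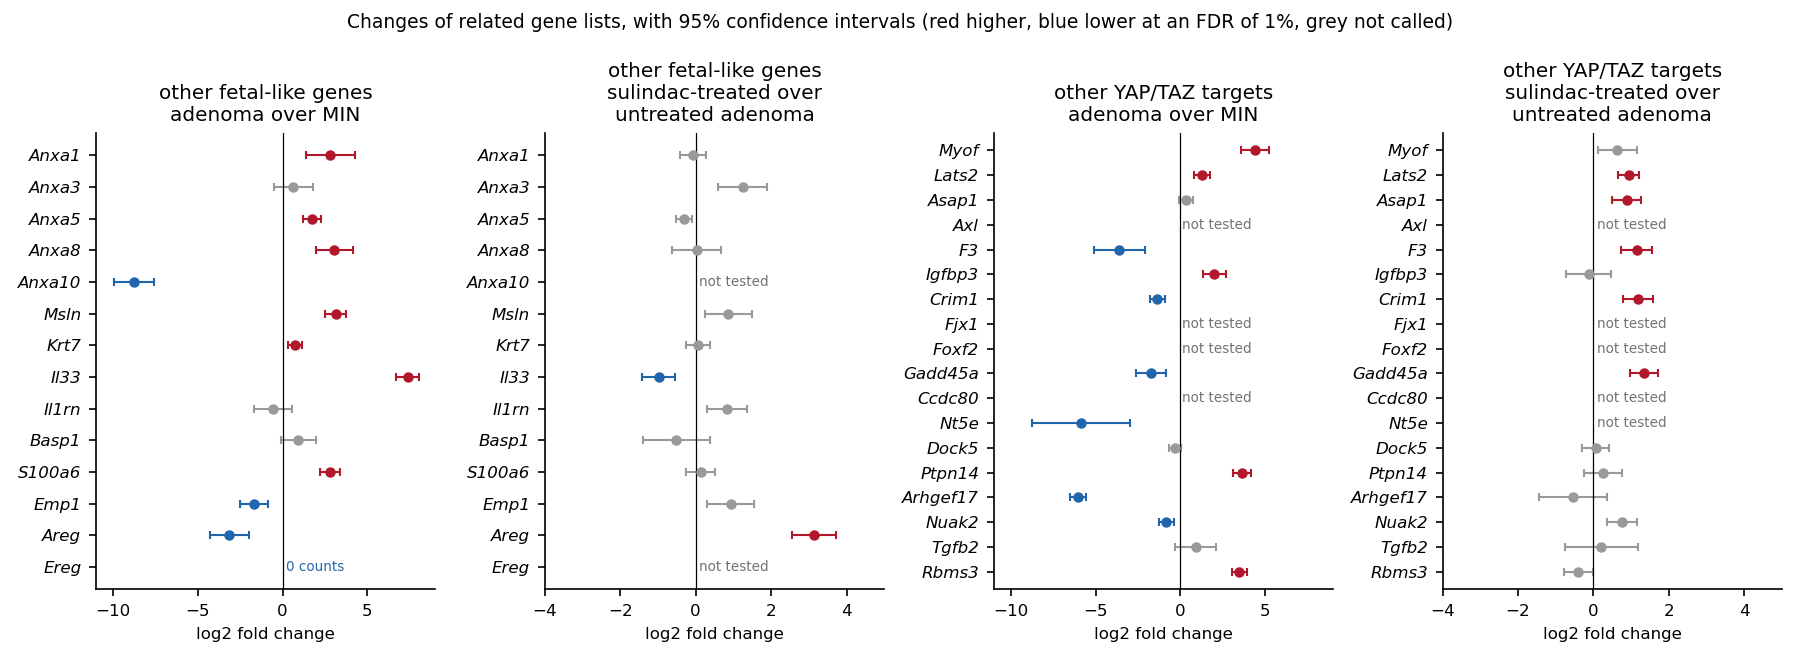
Log2 fold changes of the other fetal-like genes and the other YAP/TAZ targets in adenoma over MIN and in sulindac over adenoma, with 95% intervals. Red and blue points were higher and lower at an FDR of 1%, and grey points were not called. The fetal-like list is drawn without 1 of its 15 genes. Ereg, with 0 counts in adenoma, is marked as such in place of a fold change. The other YAP/TAZ targets lie on both sides of 0 in adenoma over MIN (5 higher and 6 lower), and the 5 called with sulindac all lie above 0.

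Relatives of the members in sequence or function were followed as well. Of the Ly6 family, 8 of 9 genes had a row. In adenoma over MIN 7 were tested, 3 were higher (Ly6e, Ly6d and Ly6k) and Lypd8 was lower, against 18.5% and 20.1% of all genes, with a median log2 fold change of 1.35. Ly6e was at 1.35 (adjusted p = 0.000417) and Ly6d at 3.83 (adjusted p = 0.000536; 4.70 without MIN 3) in edgeR's quasi-likelihood test. Ly6k passed the filter on low counts only through the adenoma libraries. Lypd8, which keeps flagellated bacteria from the colon epithelium, went from 635.5 ± 23.8 to 4.87 ± 1.10 CPM (-7.03; adjusted p = 5.48e-08, edgeR's quasi-likelihood test) and was lower again with sulindac (-1.99, adjusted p = 0.000894). Ly6c1, the gene that shares the most 50-base stretches with Ly6a, was at 2.58 in adenoma over MIN (edgeR's quasi-likelihood test, adjusted p = 0.04). In the same test the adjusted p was 0.00816 with the replicate block and 1.48e-05 without MIN 3, where the change was 5.09. With sulindac Ly6c1 fell by 2.52 on the log2 scale (edgeR's quasi-likelihood test, adjusted p = 0.000364). In edgeR's quasi-likelihood test 0 of 8 Ly6 relatives were higher with sulindac than in adenoma and 2 were lower, against 8.32% and 9.1% of all genes. The higher count was also 0 at an unadjusted p under 0.05 and by DESeq2, against at least 2034 and 1778 of 12962 genes. In sulindac over MIN 3 were higher and 1 lower of 6, against 23% and 26.8% of all genes. There Ly6k passed the low-count filter only through the sulindac libraries. The 4 relatives of Ctgf and Cyr61 (Nov, Wisp1, Wisp2 and Wisp3) had too few counts to be tested in any comparison.

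Among 9 other connexin genes, 6 were tested in adenoma over MIN. Gja3 (5.43, adjusted p = 0.000101) and Gjb5 (2.88, adjusted p = 0.00205; 3.75 without MIN 3) were higher in edgeR's quasi-likelihood test, from low counts (Gja3 had 0 to 2 in MIN and 43 to 74 in adenoma). Both passed the filter on low counts only through the adenoma libraries, so their inclusion already required a difference. The epithelial connexins Gjb1 (-2.29, adjusted p = 5.85e-05) and Gjb2 (-2.17, adjusted p = 1.58e-05) were lower in edgeR's quasi-likelihood test. Of the 6 receptor genes for osteopontin, 5 were tested in adenoma over MIN. Itgav, the integrin alpha-V gene, rose from 25.5 ± 2.49 to 65.6 ± 6.21 CPM (1.37; adjusted p = 3.1e-05, edgeR's quasi-likelihood test) and to 109.5 ± 12.7 CPM with sulindac (0.75, adjusted p = 0.00309). Itga9 fell, from 18 to 46 counts in MIN to 0 to 3 in adenoma (edgeR's quasi-likelihood test, adjusted p = 0.00249). It passed the filter on low counts only through the MIN libraries. With sulindac 1 of 4 receptors was higher than in adenoma and 0 were lower, against 8.32% and 9.1% of all genes. In sulindac over MIN 1 of 5 was higher and 1 (Itga9) lower, against 23% and 26.8% of all genes. Itga9 passed the low-count filter there too only through the MIN libraries.

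The genes whose levels most resembled each member's were sought by Pearson's r of log2(CPM + 0.5) over the 9 samples, among 13861 genes. The samples fall into 3 groups, so r mostly describes the order and spacing of the groups. Anxa1, S100a14 and Mb were nearest to Ly6a (r = 0.988, 0.986 and 0.979). Trpv4, Tmod1 and Rhox2h were nearest to Clu (0.986, 0.981 and 0.980). Arvcf, Serinc1 and Plekhm2 were nearest to Ctgf (0.995, 0.990 and 0.989), and Lama3, Gm7334 and Polr3gl to Cyr61 (0.983, 0.982 and 0.977). Stra6, Eya2 and Dlx3 were nearest to Ankrd1 (0.998, 0.995 and 0.995), and Irak2, Klhdc1 and Trpc1 to Amotl2 (0.991, 0.989 and 0.987). Some of these genes were barely counted. Trpv4, Rhox2h and Dlx3 had means of 0.0415, 0 and 0.0252 CPM in MIN and 1.00, 0.891 and 0.832 CPM in adenoma. With 0.5 CPM added, their r shows little beyond near absence in MIN. No member was among the 3 nearest of another. Between members, r ran from 0.670 for Ly6a with Clu to 0.952 for Cyr61 with Amotl2. Anxa1 shares the high MIN 3 value of Ly6a, with 5.23-fold the other MIN libraries.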

How the data were processed

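The authors deposited 1 table of raw counts for 23955 gene symbols, in which MIN 1 has 3 columns, of which the last equals the total of its runs in each of the 23955 rows and was used. The submitters' processing notes name mm9, RSEM and Bowtie2 2.2.4 without their roles. Coordinates of the promoters are RefSeq's on GRCm38.p6, and no read position was used. Symbols had become dates in 27 rows, which were kept.

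From the deposited counts, genes were filtered by filterByExpr, scaled by TMM and compared with edgeR 4.0.16 (quasi-likelihood test, robust fit, R 4.3.3), fitting only the groups compared, with Benjamini-Hochberg adjustment over all genes tested and an FDR of 1%, the level used in the paper. The SE is the log2 fold change over the square root of F. Replicates are 3 per group, described as biological, and whether they came from separate mice is not stated, so p-values measure the spread between these samples. The libraries held 30881206 to 48412477 counts, and exact intervals and floors cover counting error only. DESeq2 1.42.0 was an alternative. Scripts were tested on simulated data. Same-numbered MIN and Adenoma libraries deviated together (r = 0.112 to 0.193 over genes, 6 of 6 samples nearest to their own number), so blocked values are given for that comparison where a call changes. The members, lists and tests were chosen with earlier results of these data known. Named genes were all members, up to 4 called genes of each list per comparison with the largest change and no overlap between groups, every YAP, TAZ and TEAD gene, genes sharing reads with a member, and the 3 genes nearest in pattern to each member. Rbms3, Igfbp3, Msln, Anxa8, Nf2, Nuak2, Asap1 and Gjb2, and genes named only as members of a list's calls, were added after their values were seen. Some genes of the lists are counted but not reported here.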

Additional observations from a re-analysis of the deposited data

How the results depend on the processing

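The members were recomputed under RLE factors, scaling by library size alone, other filters (none, or a minimum of 10 counts per library), 1 fit of all 9 samples, a replicate block, DESeq2 and, for their counts of calls, an FDR of 5%. The counts of the related lists were recomputed under RLE factors, library size alone, the block and, chosen after seeing the data, DESeq2. Of these 340 values, 318 kept their direction and call (counts within 1.5 times). The rest follow, and the cause was not tested. In adenoma over MIN, Ly6a was called in 1 fit of all 9 samples (2.2, adjusted p = 0.00931) and with the replicate block (2.72, adjusted p = 0.00312), and Cyr61 by DESeq2 (0.90, adjusted p = 0.00781). The Hippo components called lower numbered 0 with library size alone, 2 with the block and 4 by DESeq2, against 2282, 2733 and 3242 of 13744 genes. In sulindac over adenoma, 1 fit of all 9 samples lost Amotl2 (0.77, adjusted p = 0.0247), leaving 1 member higher, against 1164 of 13892 genes. The fetal-like genes called higher numbered 2 with RLE and 5 with the block or by DESeq2, and those lower 2 with library size alone. Of all 12962 genes tested, 1142 were higher with RLE, 872 with the block and 1778 by DESeq2. With library size alone 603 were higher and 1983 lower, and with the block 1061 were lower. With library size alone, 2 Hippo components, 0 connexins and 0 osteopontin receptors were higher, and with the block 1 Hippo component was lower. DESeq2 called 2 connexins and 2 osteopontin receptors higher there, and 1 connexin higher in sulindac over MIN. In sulindac over MIN, Cyr61 was lost with no filter (1.29, adjusted p = 0.0230) and with that minimum of 10 counts (1.27, adjusted p = 0.0116). With that minimum 3 members were higher, since it also removes Ankrd1, against 2631 of 11833 genes. The block changed no other call of a member.

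Leaving out 1 library at a time, members called higher in adenoma over MIN numbered 3 to 6. Members lower in sulindac over adenoma numbered 0 to 1, and members higher in sulindac over MIN 4 to 5. Calls over all genes moved too. Higher genes in adenoma over MIN numbered 1885 (of 13933, without MIN 2) to 2441 (of 14071, without Adenoma 3). Lower genes in sulindac over adenoma numbered 386 (of 13158, without Sulindac 3) to 1488 (of 13111, without Adenoma 3). Higher genes in sulindac over MIN numbered 2430 (of 13840, without Sulindac 3) to 3405 (of 13732, without MIN 3). In adenoma over MIN, Ly6a ranged from 1.79 to 3.62, Cyr61 from 0.67 to 1.39 and Amotl2 from 1.16 to 1.76. In sulindac over adenoma, Ly6a ranged from -0.31 to 0.0715 (above 0 without Adenoma 3, at 0.0715, or Sulindac 2, at 0.07), Clu from -0.47 to 0.0011 (without Sulindac 1) and Ankrd1 from -1.49 to -1.09. In sulindac over MIN, Ly6a ranged from 1.68 to 3.49, Clu from 1.35 to 1.75 and Cyr61 from 1.06 to 1.77. Without MIN 3, a choice made for the lists after seeing the data, 0 Hippo components were lower in adenoma over MIN, against 2677 of 13909 genes. In sulindac over MIN 4 YAP/TAZ targets were then lower and 2 osteopontin receptors higher, against 3909 and 3405 of 13732 genes. Depth limits Gja1 and Spp1, and the MIN level of Ankrd1.

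In sulindac over adenoma and sulindac over MIN, same-numbered samples did not deviate together in every pair (r = -0.0746 to 0.250 and -0.0279 to 0.398). In each, 4 of 6 samples were nearest to their own number. These values do not settle whether the numbers pair the samples. There the replicate block moved the calls over all genes to 872 higher and 1061 lower, and to 3280 and 3791.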
